A study of Mus musculus with 7 samples.

Results

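BAFF added to antigen receptor stimulation was examined at 30 h in mouse B cells, as 1 library of cells given anti-IgM plus BAFF set against 1 library of cells given anti-IgM alone. These are 2 of the 7 RNA sequencing libraries of the study. All 7 came from wild type C57BL/6 B cells, and the labels give no allele beyond that, no animal, no age and no sort. The other 5 were anti-IgM plus BAFF, anti-IgM, and BAFF at 8 h, BAFF at 30 h, and unstimulated cells at 0 h. Anti-IgM is an antibody that binds the IgM antigen receptor and stands in for antigen. No cells were kept for 30 h without a stimulus, so the level at 30 h without any stimulus is not known. Each condition had 1 library. No spread between samples could therefore be measured, no test was possible, and every difference given here is a difference between 2 libraries.

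BAFF is a TNF family cytokine on which mature B cells depend for survival. Through its receptor BAFF-R (Tnfrsf13c) it stops TRAF3-directed breakdown of the kinase NIK (Map3k14). NIK and IKK alpha (Chuk) then drive the cutting of p100, the product of Nfkb2, to p52, which pairs with RelB in the noncanonical NF-kappaB pathway. The antigen receptor signals mainly through the canonical arm, with c-Rel (Rel), RelA (Rela) and p50 (from Nfkb1) held back by the IkappaB proteins. The title of the series puts the question as which NF-kappaB members BAFF engages in B cells that mature and in B cells that divide. Protein and DNA binding were not part of the data described here.

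Promoter windows of 3 genes are shown first, because Nfkb2, Ltb and Serpina3g were the genes at least 2-fold higher with anti-IgM plus BAFF, in both measures explained after the sequences, whose RefSeq promoter window holds a match to a kappaB-type motif. Each window runs from 250 bases before to 50 bases after an annotated start, on GRCm38.p6. Capitals mark each match to the motif, which is GGG, any 3 bases and TTCC, or on the other strand GGAA, any 3 bases and CCC. The 2 Nfkb2 windows shown belong to different annotated starts, and each holds 2 matches. A further Nfkb2 window, chr19:46305680-46305979, holds 1 match, at the site of the last match in the second window shown.
Nfkb2, plus strand, chr19:46304487-46304786: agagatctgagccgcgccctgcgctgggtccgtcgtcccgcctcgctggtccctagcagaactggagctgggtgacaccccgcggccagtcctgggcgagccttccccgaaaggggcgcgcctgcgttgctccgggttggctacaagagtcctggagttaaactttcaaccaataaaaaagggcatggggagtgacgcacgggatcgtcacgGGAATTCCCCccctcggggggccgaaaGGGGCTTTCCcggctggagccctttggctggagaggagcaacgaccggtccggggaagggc
Nfkb2, plus strand, chr19:46305445-46305744: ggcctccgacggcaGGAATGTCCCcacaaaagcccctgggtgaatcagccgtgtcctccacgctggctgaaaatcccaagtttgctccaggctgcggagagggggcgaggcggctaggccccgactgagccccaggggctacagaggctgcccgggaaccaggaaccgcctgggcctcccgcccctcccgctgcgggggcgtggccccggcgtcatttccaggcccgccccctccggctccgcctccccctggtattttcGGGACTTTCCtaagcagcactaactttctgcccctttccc
Ltb, plus strand, chr17:35194257-35194556: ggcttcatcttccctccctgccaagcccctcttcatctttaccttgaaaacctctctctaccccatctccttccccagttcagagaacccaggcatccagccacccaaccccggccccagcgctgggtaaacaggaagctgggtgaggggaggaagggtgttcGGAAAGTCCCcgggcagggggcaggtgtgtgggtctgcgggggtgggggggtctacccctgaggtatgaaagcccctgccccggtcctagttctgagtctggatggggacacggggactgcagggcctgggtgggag
Serpina3g, plus strand, chr12:104235897-104236196: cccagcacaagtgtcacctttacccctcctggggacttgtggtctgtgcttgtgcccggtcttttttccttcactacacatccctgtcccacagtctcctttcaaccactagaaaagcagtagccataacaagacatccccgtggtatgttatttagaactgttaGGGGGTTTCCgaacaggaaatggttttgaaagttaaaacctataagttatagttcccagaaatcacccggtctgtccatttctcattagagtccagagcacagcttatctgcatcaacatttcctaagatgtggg

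A match was not particular to the genes that were higher. Of the 17 genes at least 2-fold higher in both measures (0.167% of the genes compared), 12 had a promoter in the table and 3 of those held a match. Of the 30 genes at least 2-fold lower in both measures (0.294%), 26 had a promoter and 8 of those held a match, Csf1, Marco and Plaur among them. Over all 10194 genes compared, 7420 had a promoter and 7.59% of those held a match. At a looser limit of 1.5-fold in both measures, 4 of the 60 higher genes with a promoter held a match (6.67%). Among lower genes at that limit it was 13 of 103 (12.6%). The windows of Il9r and Il12a held none. A match is a run of letters and says nothing of whether a factor was bound.

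Levels are FPKM, fragments scaled to transcript length and to mapped fragments, summed over the assembled transcripts of a gene that have at least 300 bases. Differences are in log2(FPKM + 1), anti-IgM plus BAFF minus anti-IgM, a scale that understates the change of low genes. A gene was counted when that difference was at least 1 and the intervals of the 2 values did not overlap. The interval of a gene ran between the deposited lower and upper limits, each summed over its transcripts. It holds no spread between samples. It can be wider than counting error where several transcripts were assembled, as for Tnfrsf13b with anti-IgM plus BAFF (41.1 to 209 FPKM). The mapped reads came to 24.1 M with anti-IgM plus BAFF and 23.1 M with anti-IgM. Of 10194 genes compared, 203 were counted higher (1.99%) and 304 lower (2.98%). The transcripts were assembled anew in each library, so a gene can differ because it was pieced together differently. The reads over the exons of each gene were therefore calculated back from the assembled transcripts in the same files as another measure. A gene with no assembled transcript over its exons has no reads in it. This measure shares its source with FPKM and is not independent evidence. With 2-fold required of both measures, a limit also added after the data were seen, 17 genes were higher and 30 lower. At 1.5-fold in both measures with intervals apart, a limit chosen after the data were seen, 84 were higher (0.824%) and 130 lower (1.28%).

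The 2 libraries were alike for most genes. Among the 7942 genes at 5 FPKM or more in both, 86.6% differed by less than 0.5 in log2(FPKM + 1), and 96.1% did so by reads over exons. The median difference over all genes compared was -0.04, and 58.1% of them were below 0, which is the share to set beside the counts of list members above or below 0. Both libraries held B cell RNA: Ms4a1, the gene of CD20, was at 299.6 FPKM with anti-IgM plus BAFF and 239.5 FPKM with anti-IgM, and Pax5, which encodes a transcription factor of B cell identity, was at 95.8 and 106 FPKM. None of 10 neutrophil markers in the merged transcript set was assembled in either library. Of 13 T cell markers, 10 had no assembled transcript over their exons with anti-IgM plus BAFF and 8 had none with anti-IgM. Of the 3 that were compared, Lck was at 91.7 FPKM with anti-IgM plus BAFF and 93.8 FPKM with anti-IgM. A gene that was not assembled is not shown to be silent.

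**Figure D1:**
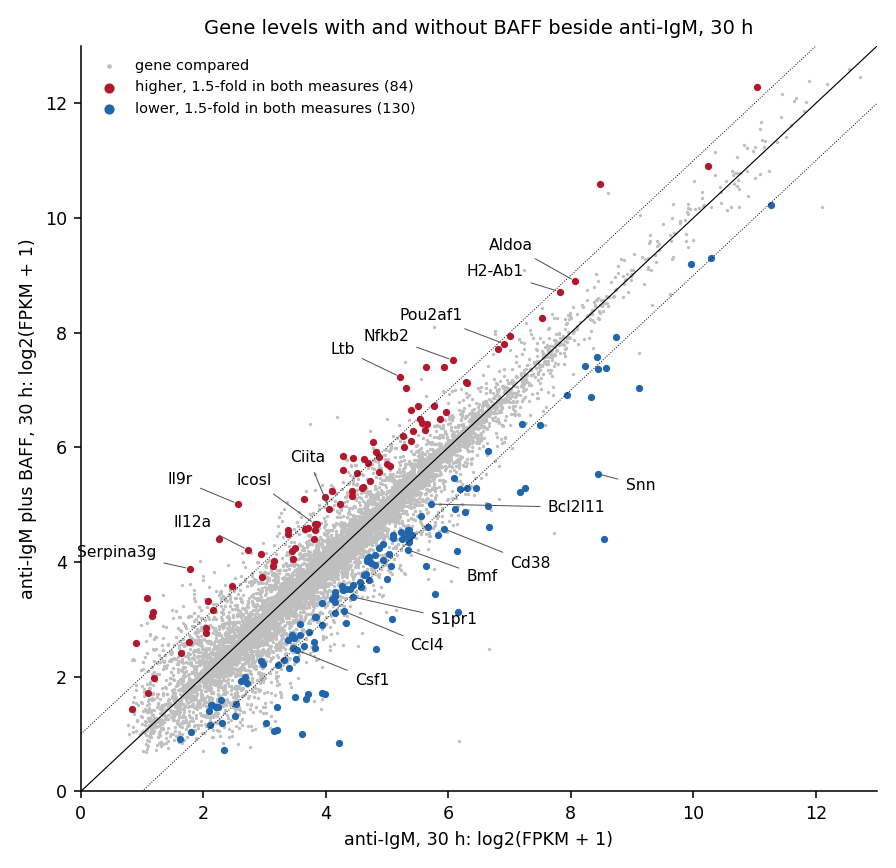
Level of every gene compared, as log2(FPKM + 1), with anti-IgM plus BAFF at 30 h on the vertical axis and anti-IgM at 30 h on the horizontal axis. Red and blue mark the 84 and 130 genes past 1.5-fold in both measures, the solid line marks equal levels and the dotted lines a difference of 1, and most genes lie close to the solid line with Il9r, Ltb and Nfkb2 above it and Snn, Cd38 and Bmf below.

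Nfkb2, which encodes p100 and its product p52, had the one counted difference among the 5 NF-kappaB subunit genes. Its level was 183 FPKM with anti-IgM plus BAFF (interval 179 to 186) and 66.1 FPKM with anti-IgM (interval 63.4 to 68.9), a difference of 1.45. The reads over its exons were 12414 with anti-IgM plus BAFF and 4353 with anti-IgM. The anti-IgM library at 30 h held the lowest Nfkb2 level of the 7, below the unstimulated 75.3 FPKM, while BAFF alone had 134 FPKM at 30 h. At 8 h the same pair stood at 198 FPKM with anti-IgM plus BAFF and 147 FPKM with anti-IgM, a difference of 0.43. The 3' end of Nfkb2 (chr19:46300994-46312400 in RefSeq) meets that of Psd on the other strand (chr19:46312085-46328127), and Psd was at 33.2 and 11.6 FPKM. Whether the libraries kept strand is not given in the sources used here, so reads of the pair at that end cannot be told apart.

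The other 4 subunit genes lay within 1.5-fold. RelB, the partner of p52, is encoded by Relb, which was at 51.3 FPKM with anti-IgM plus BAFF and 45.6 FPKM with anti-IgM (0.17, and -0.14 by reads over exons). Rela was at 40.004 FPKM with anti-IgM plus BAFF and 39.971 FPKM with anti-IgM. Rel stood at 105 FPKM with anti-IgM plus BAFF and 114 FPKM with anti-IgM (-0.12), and Nfkb1 at 117 and 151 FPKM (-0.36). The subunit list as a whole had a median of 0.00, which moved between -0.12 and 0.05 under the alternatives, so the Nfkb2 difference was that of 1 gene and not of the family.

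None of the 9 NF-kappaB inhibitor and feedback genes compared was counted (median 0.07, of either sign under the alternatives). Nfkbia, the gene of IkappaB alpha and itself a classic NF-kappaB target, was at 160.1 FPKM with anti-IgM plus BAFF and 113 FPKM with anti-IgM, a difference of 0.50 with intervals apart. Nfkbid, a nuclear IkappaB gene, went the other way with 41.9 and 59.1 FPKM (-0.49). Nfkbie was assembled in the anti-IgM library at 94.8 FPKM and not in the other, and so was not compared. The 14 kinases and adaptors of the pathway had no counted member either (median 0.10, and -0.05 on the most abundant transcript alone). Map3k14 was at 13.3 FPKM with anti-IgM plus BAFF and 14.6 FPKM with anti-IgM, Traf3 at 17.5 and 13.3 FPKM, and Chuk at 22.9 and 20.7 FPKM.

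No receptor of BAFF was counted. Tnfrsf13c was at 84.9 FPKM with anti-IgM plus BAFF and 154 FPKM with anti-IgM (-0.85), but the reads over its exons were 7791 and 8018 (-0.10). The FPKM difference thus went with 2 assembled transcripts with anti-IgM plus BAFF and 3 with anti-IgM. Tnfrsf13b, the gene of TACI, another BAFF receptor, was at 111 and 138 FPKM (-0.30), and Tnfrsf17, the gene of BCMA, was not assembled in any of the 7 libraries. Cd40, a TNF receptor family gene for T cell help, stood at 33.8 and 25.6 FPKM (0.39). Tnfrsf18, the gene of GITR, had 17.9 and 28.2 FPKM and was the 1 receptor of 11 lower by 1.5-fold in both measures.

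Among TNF family ligands, Ltb and Tnfsf4 were both counted and both at least 2-fold higher in both measures, out of 6 ligands compared (median 0.40). Ltb encodes lymphotoxin beta, the membrane anchor of the lymphotoxin heterotrimer. It was at 149 FPKM with anti-IgM plus BAFF (interval 143 to 154) and 36.1 FPKM with anti-IgM (interval 31.0 to 41.3), a difference of 2.01. Anti-IgM at 30 h was again the lowest of the 7 libraries, below anti-IgM at 8 h (61.7 FPKM) and the unstimulated cells (236 FPKM), and BAFF alone at 30 h was the highest (479.7 FPKM). The level with anti-IgM plus BAFF therefore lay between those of the single stimuli. At 8 h the pair stood at 115 and 61.7 FPKM (0.88). Tnfsf4, the gene of OX40 ligand, was at 10.9 FPKM with anti-IgM plus BAFF and 4.56 FPKM with anti-IgM (1.10), and the anti-IgM plus BAFF library was the highest of the 6 in which the gene was assembled. Lta, which encodes the partner chain of lymphotoxin beta, was at 4.28 and 2.38 FPKM (0.65), with overlapping intervals.

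Il9r, the gene of the IL-9 receptor alpha chain, had the largest difference among the higher genes named under the selection rule. It was at 31.3 FPKM with anti-IgM plus BAFF (interval 29.9 to 32.8) and 4.90 FPKM with anti-IgM (interval 3.03 to 6.77), a difference of 2.46. By reads over exons it was 3429 against 179, a difference of 3.45. In the anti-IgM library the gene was assembled as 4 pieces and in the other as 2 transcripts. BAFF alone held 64.2 FPKM at 30 h and 66.7 FPKM at 8 h, and the unstimulated cells 12.9 FPKM. At 8 h the pair stood at 20.1 and 7.07 FPKM (1.38). Il9r was thus at least 2-fold higher in both measures at both times, beside 0.26% of all genes so called at 8 h. Its RefSeq span (chr11:32187544-32205283) ends beside Snrnp25 (chr11:32205415-32208996), a splicing factor gene of the minor spliceosome, which was at 59.8 and 27.1 FPKM (1.12). On these RefSeq spans the genes lie within 1000 bases of each other, although in the merged transcript set the exons of Il9r end farther away, so a share of reads from Snrnp25 was not tested.

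Serpina3g and Il12a were also lowest with anti-IgM at 30 h. Serpina3g encodes an intracellular inhibitor of cysteine proteases and belongs to a cluster of near-identical genes, among which reads may be shared, so its value is uncertain. It was at 13.8 FPKM with anti-IgM plus BAFF (interval 10.7 to 16.8) and 2.42 FPKM with anti-IgM (interval 1.56 to 3.28), a difference of 2.11. BAFF alone at 30 h had 28.8 FPKM of Serpina3g, and unstimulated cells had 20.1 FPKM. Il12a, the p35 chain of IL-12 and IL-35, was at 17.5 FPKM with anti-IgM plus BAFF and 5.61 FPKM with anti-IgM (1.49), against 20.3 and 8.50 FPKM at 8 h (1.17, and 0.62 by reads over exons). Unstimulated cells had 16.8 FPKM of Il12a. BAFF alone gave the highest level of both genes, at 30 h for Serpina3g and at 8 h for Il12a.

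**Figure D2:**
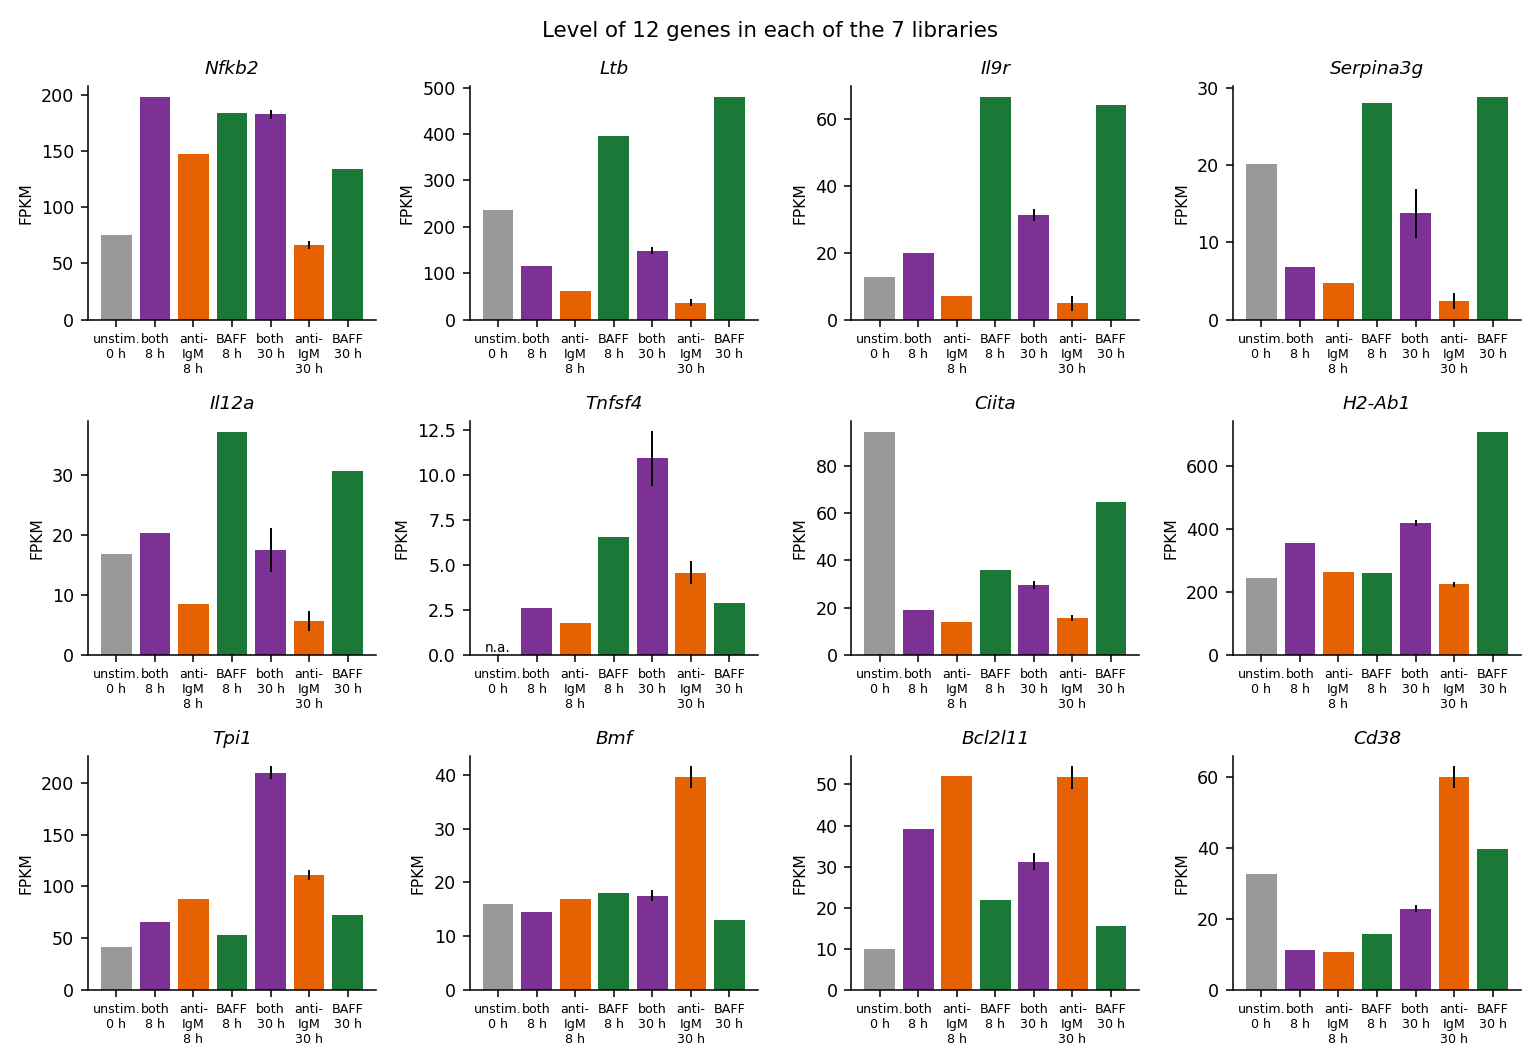
FPKM of 12 genes in each of the 7 libraries, from the unstimulated cells to 30 h, with purple for anti-IgM plus BAFF (both), orange for anti-IgM and green for BAFF. Black lines run between the deposited limits, summed over transcripts, of the 2 libraries compared at 30 h (n.a. marks a gene not assembled). Nfkb2, Ltb, Il9r, Serpina3g and Il12a have their lowest bar with anti-IgM at 30 h, while Bmf and Cd38 have their highest there.

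Among the remaining large differences, the rule named Gpt, Trim30a, Ndufa9, Atpif1 and Fads2 as higher. Fads2, a fatty acid desaturase gene, was at 9.02 FPKM with anti-IgM plus BAFF and 3.20 FPKM with anti-IgM (1.26), and at 5.02 and 1.69 FPKM at 8 h (1.16, but 0.04 by reads over exons). Ndufa9, a complex I subunit gene, was at 56.5 and 18.5 FPKM (1.56), though the 31 oxidative phosphorylation genes compared had a median of 0.02. Trim30a, an interferon-inducible member of a cluster of similar genes, was at 168 and 48.6 FPKM (1.77), with the opposite order at 8 h. Gpt, an alanine aminotransferase gene, had 9.34 and 1.12 FPKM (2.29), but rested on 96 and 18 reads over its exons. Atpif1, which encodes an inhibitor of the mitochondrial ATPase, had 67.3 and 26.4 FPKM (1.32). Rpl7a and Rpl41 were also at least 2-fold higher in both measures, but both have near-identical copies and close neighbours.

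Of 13 genes compared from a list of genes described as BAFF responsive, 10 were above 0, with a median of 0.37. Beyond Nfkb2 and Il9r, Icosl, the gene of the ICOS ligand, was at 24.4 FPKM with anti-IgM plus BAFF and 13.1 FPKM with anti-IgM (0.85, intervals apart). Its level with BAFF alone at 30 h was 152 FPKM, beside 117 FPKM in unstimulated cells. At 8 h the Icosl pair stood at 21.2 and 25.4 FPKM (-0.25, and 0.14 by reads over exons). The 30 h difference of Icosl fell as low as 0.22 under the alternatives. Pim2, a survival kinase gene, had 93.9 and 65.7 FPKM (0.51). Fcer2a, the gene of CD23, had 123 and 96.7 FPKM (0.35). Cr2, which encodes CD21, was at 20.1 and 36.2 FPKM (-0.82) but differed by 0.48 the other way in reads over exons, so no direction can be given. Pou2af1, the gene of the B cell coactivator OCA-B, was not on that list and stood at 223 and 119.7 FPKM (0.89), and at 182 and 116 FPKM at 8 h (0.65).

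MHC class II genes were mostly higher with anti-IgM plus BAFF. Of 11 compared, 9 were above 0, none was counted at 2-fold, and 3 were higher by 1.5-fold in both measures (median 0.43). H2-Ab1, a class II beta chain gene, was at 419 FPKM with anti-IgM plus BAFF and 224 FPKM with anti-IgM (0.90). Ciita, the class II transactivator, was at 29.5 and 15.6 FPKM (0.87), and H2-DMb2, part of the peptide loading complex, at 97.4 and 61.3 FPKM (0.66). H2-DMa and H2-DMb1, other chains of that complex, had 65.7 and 80.1 FPKM (-0.28) and 17.0 and 24.9 FPKM (-0.52). The same list had a median of 0.26 at 8 h over 10 genes. Macrophages and dendritic cells carry class II as well. Macrophage markers had 3 of 11 above 0 (median -0.56, and -0.35 by reads over exons), with the abundant Mpeg1 and Emr1 at 0.20 and 0.27, and dendritic markers had 1 of 4 above 0 (median -0.15). Their part in the class II values was not tested.

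Glycolysis genes were mostly higher with anti-IgM plus BAFF. Of 20 genes compared, 19 were above 0, none was counted at 2-fold and 5 were higher by 1.5-fold in both measures (median 0.37, and 0.41 by reads over exons). Tpi1, triosephosphate isomerase, was at 209.8 FPKM with anti-IgM plus BAFF and 111 FPKM with anti-IgM (0.91). Aldoa, an aldolase gene, was at 477 and 267 FPKM (0.84), and Eno1, an enolase gene, at 305 and 183 FPKM (0.73). Gapdh stood at 1218 and 816 FPKM (0.58) and Ldha, lactate dehydrogenase, at 442 and 332 FPKM (0.41). The exception was Pfkl, a phosphofructokinase gene, at 32.8 and 41.7 FPKM (-0.34), whose reads over exons differed by 0.90 the other way. At 8 h the list had a median of -0.08 over 21 genes, and the difference between the times was not tested. A list of hypoxia response genes, written after the values were seen and sharing 8 of its members with glycolysis, had 20 of 25 above 0 (median 0.33). Outside those shared members, Ankrd37 was higher by 1.5-fold in both measures (17.9 and 10.2 FPKM). Vegfa, an angiogenic factor gene, and Pfkfb3, a regulator of glycolysis, were counted higher at 6.49 and 0.975 FPKM and at 45.1 and 21.7 FPKM, but differed by 0.58 and -0.16 in reads over exons.

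Sterol and fatty acid genes leaned the same way, with 21 of 26 above 0, none counted and 2 higher by 1.5-fold in both measures (median 0.27). Scd2, a stearoyl-CoA desaturase gene, was at 139 FPKM with anti-IgM plus BAFF and 77.9 FPKM with anti-IgM (0.83), and Fdps, farnesyl diphosphate synthase, at 89.3 and 57.0 FPKM (0.64). Srebf1, a regulator of lipid synthesis, had 43.6 and 27.1 FPKM (0.66), but was not among the 2 past 1.5-fold in both measures. The 5 members below 0 included the abundant Scd1, at 209 and 237 FPKM (-0.18). Mvd, also below 0, was at 71.2 and 120 FPKM (-0.74, and -0.11 by reads over exons). The 35 ribosome biogenesis genes had a median of 0.01 and the 31 proteasome genes of -0.00. All 8 MYC network genes compared were below 0, with none counted (median -0.17). Myc itself was at 59.9 and 61.2 FPKM.

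Genes that promote cell death held 1 counted difference, Bmf, and 10 of 13 were below 0 (median -0.10). Bmf encodes a BH3-only protein that neutralizes BCL-2 relatives. It was at 17.5 FPKM with anti-IgM plus BAFF (interval 16.7 to 18.3) and 39.6 FPKM with anti-IgM (interval 37.7 to 41.4), a difference of -1.13 in both measures. The other 5 libraries had between 12.96 and 18.04 FPKM, so it was the anti-IgM library at 30 h that stood apart. Bcl2l11, the gene of the BH3-only protein BIM, was at 31.2 and 51.7 FPKM (-0.71), and at 39.2 and 52.0 FPKM at 8 h (-0.40).

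The survival list differed little, with none of 9 genes counted (median -0.05, of either sign under the alternatives). Bcl2l1, the gene of BCL-xL and one described as BAFF responsive, was lower with anti-IgM plus BAFF, at 20.4 FPKM against 33.1 FPKM with anti-IgM (-0.67, intervals apart). Mcl1, a survival gene that B cells need, was at 229 and 186 FPKM (0.29), and Bcl2 at 13.99 and 12.38 FPKM (0.16). Bcl2a1b and Bcl2a1d are near-identical copies, so the 121 and 164 FPKM of Bcl2a1b and the 85.0 and 64.4 FPKM of Bcl2a1d are uncertain.

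Of 22 early response genes compared, 15 were below 0 (median -0.24), 1 was counted higher and 2 lower, and 3 were lower by 1.5-fold in both measures. Nr4a3, an orphan nuclear receptor gene, was at 7.25 FPKM with anti-IgM plus BAFF and 13.1 FPKM with anti-IgM (-0.77). Nr4a2, its relative, had 1.76 and 8.22 FPKM (-1.74, but -0.62 by reads over exons). Fosl2, an AP-1 gene, had 1.09 and 8.17 FPKM (-2.13, but -0.73 by reads over exons), and rested on 10 reads with anti-IgM plus BAFF. Egr2 stood at 60.3 and 82.4 FPKM (-0.44). Maff, counted higher at 8.68 and 3.46 FPKM, differed by 0.21 in reads over exons. Rcan1, a calcineurin inhibitor gene induced by calcium signals, was at 21.2 and 33.1 FPKM (-0.62).

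Of 10 cytokine and chemokine genes compared, 1 was counted higher and 3 lower, and 8 were below 0 (median -0.23). Ccl4, a chemokine gene, was at 7.81 FPKM with anti-IgM plus BAFF and 18.7 FPKM with anti-IgM (-1.16), and its neighbour in the genome Ccl3 at 3.92 and 8.97 FPKM (-1.02). Csf1, the macrophage colony stimulating factor gene, was at 4.53 and 10.5 FPKM (-1.05). Ccl5 had 43.2 and 66.9 FPKM (-0.62). Ccl22, a chemokine gene for CCR4-bearing T cells, was higher instead, at 68.3 and 40.8 FPKM (0.73), and BAFF alone at 30 h had 103 FPKM against 1.78 FPKM in unstimulated cells.

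Of 19 homing and egress genes 12 were below 0 (median -0.25), and of 20 costimulation and activation genes 15 were (median -0.13). Cd38, an NAD-consuming surface enzyme, was at 22.8 FPKM with anti-IgM plus BAFF (interval 22.2 to 23.5) and 60.1 FPKM with anti-IgM (interval 57.3 to 62.8), a difference of -1.36, and anti-IgM at 30 h was the highest of the 7 libraries. S1pr1, a receptor that guides lymphocytes out of tissue, was at 9.48 and 20.8 FPKM (-1.06). Sdc1, the gene of the plasma cell marker CD138, had 4.66 and 9.98 FPKM (-0.96), and 5.22 and 8.80 FPKM at 8 h (-0.66). Of 13 Notch pathway genes 11 were below 0 (median -0.37, and -0.14 by reads over exons), with Notch1 at 3.68 and 6.83 FPKM (-0.74) and Hes5, a Notch target, at 2.69 and 5.54 FPKM (-0.83). Hes1 and Maml2 were counted lower in FPKM but differed by -0.05 and -0.28 in reads over exons.

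Cell cycle lists differed little. The 39 DNA replication genes had a median of -0.06 and the 32 mitosis genes of -0.14, with 26 of the mitosis genes below 0. Mcm6, a helicase subunit gene, was at 124 FPKM with anti-IgM plus BAFF and 129 FPKM with anti-IgM, and Mki67, a gene of dividing cells, at 30.4 and 34.1 FPKM. The counted members Pola1 (16.4 and 34.9 FPKM) and Espl1 (6.31 and 15.7 FPKM) differed by 0.00 and -0.13 in reads over exons. Cdkn2c, a cell cycle inhibitor gene, was at 8.84 and 16.6 FPKM (-0.84). Quiescence genes had 15 of 18 below 0 (median -0.23), led by Pik3ip1, an inhibitor of PI3 kinase, at 5.36 and 10.2 FPKM (-0.81).

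Macrophage markers were mostly below 0. Of 11 compared, 8 were below 0, 1 was counted lower and 4 were lower by 1.5-fold in both measures. Their summed level over the 17 in the merged set was 135 FPKM with anti-IgM plus BAFF and 158 FPKM with anti-IgM. In each library 4 of the 17 had no assembled transcript over their exons. Marco, a scavenger receptor gene, was at 3.46 and 9.57 FPKM (-1.24), and Hmox1, Lyz2 and C1qb, which macrophages express, were at 5.63 and 10.9 FPKM, 9.63 and 16.8 FPKM, and 2.02 and 3.86 FPKM. The more abundant Mpeg1 (71.3 and 61.9 FPKM) and Emr1 (31.2 and 25.8 FPKM) had the opposite sign. The part of such cells in the lower values of Ccl3, Ccl4 and Csf1 was not tested. In these bulk samples, fewer cells of a type and less RNA per cell cannot be told apart.

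**Figure D3:**
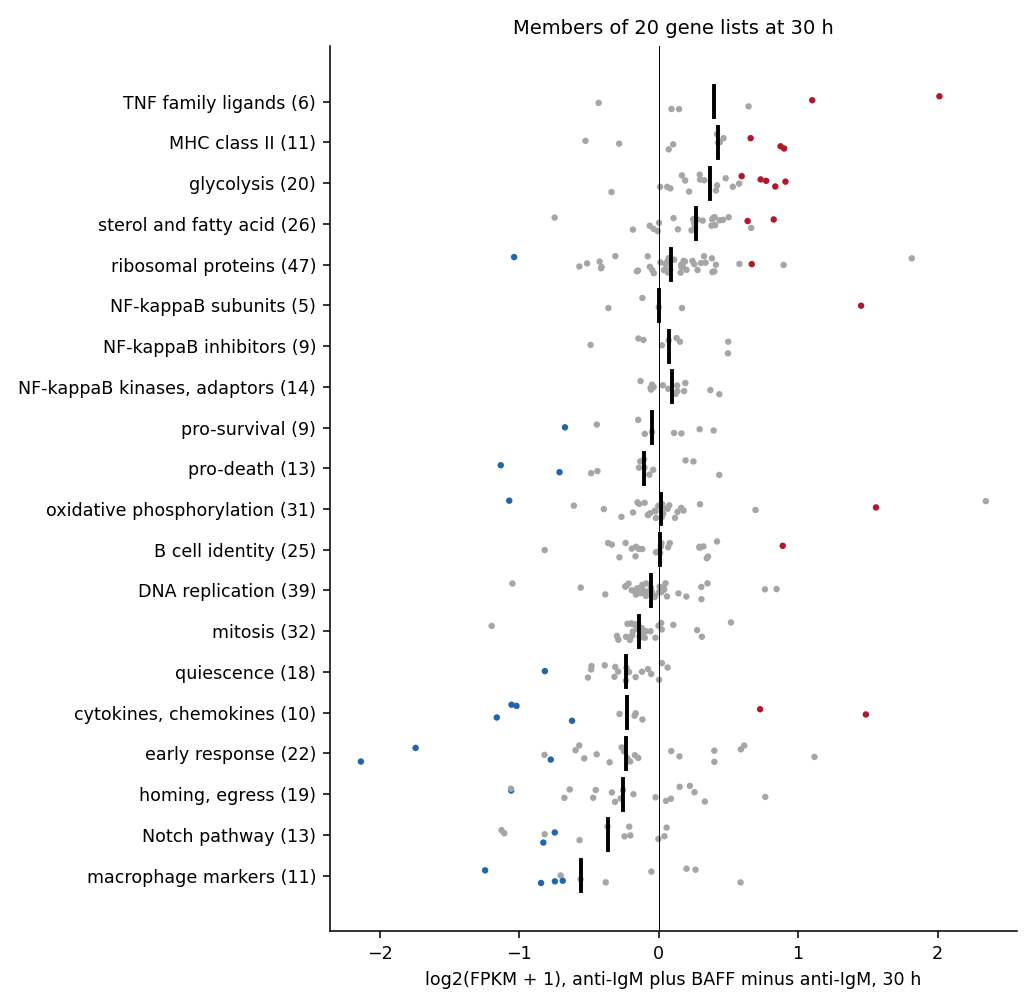
Difference in log2(FPKM + 1), anti-IgM plus BAFF minus anti-IgM at 30 h, for the compared members of 20 gene lists, with the number compared in brackets and a black bar at each median. Red and blue points are members higher or lower by 1.5-fold in both measures, and glycolysis has 19 of its 20 points right of 0 while macrophage markers have 8 of 11 left of it.

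The largest lower values were in genes outside the lists. Snn, the gene of a small mitochondrial protein, was at 45.4 FPKM with anti-IgM plus BAFF and 348 FPKM with anti-IgM (-2.91), and the other 5 libraries had between 238 and 376 FPKM. Here the anti-IgM plus BAFF library stood alone. Gemin7, of the SMN complex, was at 9.85 and 53.7 FPKM (-2.33), and at 4.58 and 50.6 FPKM at 8 h (-3.21, and -0.99 by reads over exons). The rule also named Rpl22l1, Ssb, Mrpl20, Trim12c, Psme1, Nsfl1c, Ier5l and Brp44l, with differences between -2.08 and -1.28. Trim12c and Rpl22l1 belong to families with near-identical copies, so their values are uncertain. A further 15 genes were at least 2-fold different in both measures but lay within 1000 bases of another expressed gene, so they too are uncertain. Nfkb2, Rpl7a, Rpl41, Snrnp25 and Sft2d3 were higher among them, and Anapc13, Zfp296, Plekhj1, Pgls, Atat1, AI428936, Myg1, Mboat7, Sp140 and Tonsl lower.

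Where the 2 libraries stood among all 7 differed between genes. Of the 84 genes higher by 1.5-fold in both measures, 72 were assembled in all 7 libraries. The anti-IgM library at 30 h was the lowest of the 7 for 29 of them, and the anti-IgM plus BAFF library was the highest for 31. Of the 130 lower genes, 102 were assembled in all 7, with anti-IgM plus BAFF at 30 h the lowest for 44 and anti-IgM at 30 h the highest for 44. Over all genes compared that lay above 0, the same shares were 22.05% for anti-IgM plus BAFF as the highest and 27.3% for anti-IgM as the lowest. Over all genes below 0 they were 27.9% for anti-IgM plus BAFF as the lowest and 23.6% for anti-IgM as the highest. The 84 and 130 genes were picked for a large difference between these 2 libraries, which by itself favours an extreme place for 1 of them. The shares over all genes carry no such choice, so nothing is concluded from the gap.

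The same genes were then read in comparisons that share no library with the one at 30 h. Anti-IgM plus BAFF against anti-IgM at 8 h had a value for 76 of the 84 higher genes, of which 52 (68.4%) were also above 0, beside 57.6% of all genes that lay above 0 at 30 h. It had a value for 118 of the 130 lower genes, of which 70 (59.3%) were also below 0, beside 49.0% of all genes below 0. By reads over exons at 8 h the shares were 71.1% of the higher genes beside 51.0%, and 66.9% of the lower beside 57.9%. Differences at the 2 times were only weakly related across the 7792 genes at 5 FPKM or more in both 30 h libraries. Their Pearson correlation was 0.05, and 0.19 by reads over exons. At 1.5-fold in both measures, 94 genes were higher at 8 h (0.94%) and 50 lower (0.5%). In all, 10 genes were higher at both times, Il12a, Il9r, Kynu, Ltb, Mrps33, Pou2af1, Rpl7a, Scand1, Ticam2 and Trmt112. Another 9 were lower at both, Atp5g2, Ccl4, Gemin7, Htra2, Mtmr2, Sdc1, Spp1, Trim12c and Zfp296. By the same limit, 4 of the 76 higher genes were lower at 8 h and 5 of the 118 lower genes were higher. Kynu encodes an enzyme of tryptophan breakdown, at 24.4 and 13.4 FPKM at 30 h. BAFF alone at 30 h against unstimulated cells had a value for 80 of the 84 higher genes, of which 58 (72.5%) were above 0, beside 60.9% of all genes above 0. For the lower genes the share below 0 was 45.5%, and it was 45.5% for all genes below 0 as well.

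**Figure D4:**
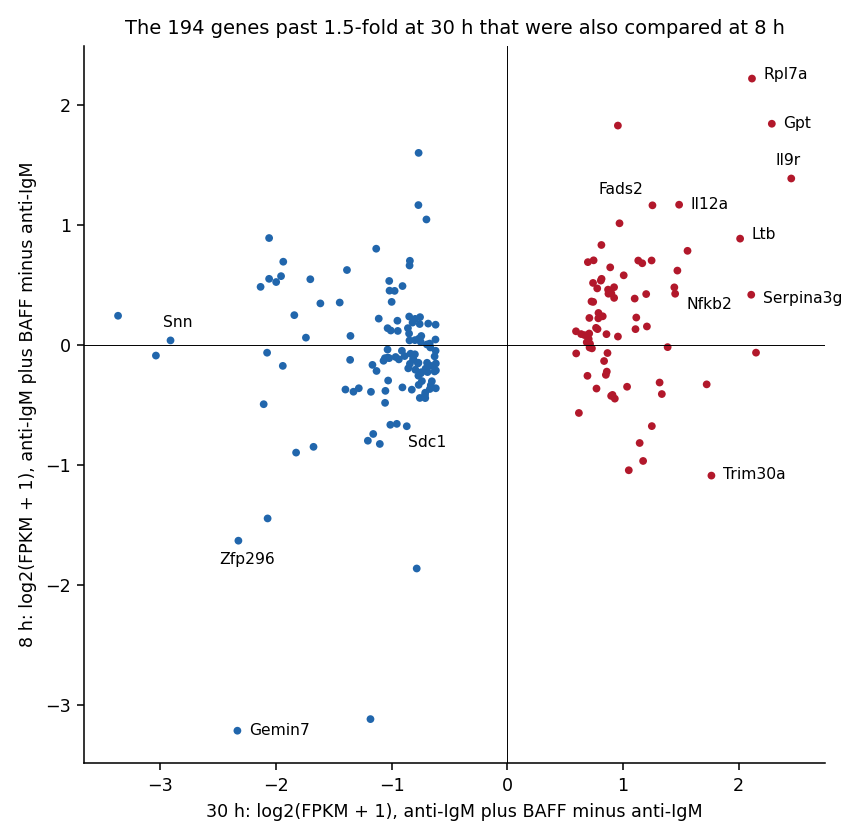
Difference between anti-IgM plus BAFF and anti-IgM in log2(FPKM + 1) at 30 h (horizontal) and at 8 h (vertical) for the genes higher (red, 76) or lower (blue, 118) by 1.5-fold in both measures at 30 h and compared at 8 h. Il9r, Ltb and Il12a lie above 0 on both axes, Gemin7 and Zfp296 below 0 on both, and Trim30a has opposite signs.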

How the data were processed

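RNA of 7 libraries, 1 per condition, was sequenced from poly-dT primed cDNA with Illumina kits, per the labels' protocols. The submitters' processing notes name CASAVA 1.8.2, TopHat2 2.0.5, Bowtie2 2.0.0.7, Cufflinks 2.0.2 and the build mm10. The authors deposited transcripts assembled in each library, with FPKM and its lower and upper limit, per the file headers. The limits of a gene were those limits summed over its transcripts. For loci with 1 assembled transcript the limits were taken as 2 SD of counting error either side. From the upper limit there, FPKM and transcript length, mapped reads were estimated. They came to between 18.7 M and 28.6 M reads per library, which bears on counting error alone. Pieces under 300 bases held 66.6 to 74.4% of the summed FPKM and were left out.

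Gene names came from exon overlap on the same strand with a merged transcript set. A gene was compared when assembled in both libraries and at 1 FPKM or more in either. Differences used log2(FPKM + 1). Reads over exons on either strand were calculated back from FPKM and transcript length. With 1 library per condition no test was made. Genes named were the 12 largest differences per direction that were 2-fold in both measures, at 5 FPKM or more and over 1000 bases from another expressed gene (10 were higher), chosen members of the NF-kappaB, survival and BAFF lists, and counted or abundant members of the other lists. Genes named outside that rule, such as those past 1.5-fold, were picked with their values in view. The members and the 46 lists were chosen with earlier results of these data known. The hypoxia list and the limits of 2-fold and of 1.5-fold in both measures were added after seeing these values. Promoters are RefSeq's for GRCm38.p6. Python 3.11.15, numpy 2.4.6, pandas 2.3.3, scipy 1.17.1 and matplotlib 3.10.9 were used, and the calculation was tested on simulated data. Alternatives covered pseudocount, minimum level, scaling, transcript length and measure.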

Additional observations from a re-analysis of the deposited data

Results flagged for a closer look

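Trim30a had opposite signs at the 2 times. The difference between anti-IgM plus BAFF and anti-IgM was 1.77 at 30 h (168 and 48.6 FPKM) and -1.09 at 8 h (74.3 and 159 FPKM). With 1 library per condition the difference between the times was not tested. The gene belongs to a cluster of similar copies.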

How the results depend on the processing

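The counts of genes at 30 h, 203 higher and 304 lower, moved with the way levels were made. They were 75 and 108 with a pseudocount of 5, 454 and 596 with genes not assembled set to 0, and 102 and 155 with transcripts of at least 1000 bases. They were 125 and 178 on the most abundant transcript alone, 125 and 136 by reads over exons, and 549 and 687 at 1.5-fold. The limits added after the data were seen gave 17 and 30 (2-fold in both measures), 84 and 130 (1.5-fold in both), and 11 and 20 (2-fold in both, no expressed gene within 1000 bases). The share of counted genes with the same sign at 8 h, 63.6% of the higher and 48.0% of the lower, was 55.0% of the higher with genes not assembled set to 0, and 48.4% of the higher and 59.5% of the lower by reads over exons. Gpt, 2.29 higher, was -1.47 with transcripts of any length. The cause was not tested in any of these. Equal upper quartiles or median ratios shifted all values by 0.06 or 0.04 and moved neither count by 1.5 times. Of 462 list medians under 11 alternatives 459 moved less than the limit used. Of the 22 largest genes, 14 stayed 2-fold the same way wherever they had a value. The rest were Gpt, Il12a, Fads2, Tnfsf4, Trim12c, Cd38, Ier5l and Marco. The smallest difference under an alternative was 0.58 for Tnfsf4, 0.86 for Il12a, -0.96 for Cd38 and -0.78 for Marco. No paired analysis was possible because each condition had 1 library and the labels carry no replicate number. No library could be left out for the same reason. The intervals hold no spread between samples, so differences between animals, cultures or preparations cannot be told apart from those of BAFF.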

Other observations

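Genes assembled in 1 of the 2 libraries at 30 h were outside the comparison. At 1 FPKM or more there were 252 with anti-IgM plus BAFF alone and 292 with anti-IgM alone. Il15, a cytokine gene for NK and memory T cells, was assembled at 2.79 FPKM with anti-IgM plus BAFF and not with anti-IgM. Nfkbie, an IkappaB gene, at 94.8 FPKM, and the TNF ligand genes Cd70 at 1.48 FPKM and Fasl at 1.91 FPKM, were assembled with anti-IgM and not with anti-IgM plus BAFF. A gene that was not assembled is not shown to be silent.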
